A study of Mus musculus with 10 samples.

Results

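The cytochrome P450 genes described here are the rows of the expression matrix whose symbol has the form Cyp, a family number, a subfamily letter and a gene number, without Cyp26a1, Cyp26b1, Cyp51 and Cyp4f39. They number 92 of 56691 mouse gene IDs. The RNA came from esophageal epithelium, from which muscle and mesenchyme had been stripped, in 5 libraries of wild-type mice and 5 of p63CreERT2;Mst1loxp/loxp;Mst2-/- mice, called knockout here. Tamoxifen was given to wild-type and knockout mice alike, as 3 doses of 100 mg/kg at intervals of 2 weeks, with RNA isolated some 8 weeks on. In the knockout the Cre recombinase, which tamoxifen activates, is driven by p63, a gene of basal epithelial cells, so that the design targets Mst1 for deletion in that lineage, whereas the Mst2-/- genotype applies to the whole animal. The sources used here give neither age nor strain, nor whether the wild-type mice carried the Cre or the loxP alleles. Nor do the labels state that every library comes from its own mouse, so the p-values reflect only the variation among these samples, which may be technical.

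Cytochrome P450 enzymes are heme proteins of the endoplasmic reticulum and mitochondria that insert an oxygen atom into lipids, steroids, drugs and other foreign compounds, with electrons passed on by partner proteins such as P450 reductase. The families Cyp1, Cyp2 and Cyp3 are best known for foreign compounds, and several Cyp2 enzymes also oxidize arachidonic acid. Cyp4 enzymes hydroxylate the chain ends of fatty acids, and Cyp7, Cyp27 and Cyp39 enzymes act on sterols. Lining epithelia carry such enzymes at the surface that meets swallowed or inhaled compounds.

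Levels are FPKM, fragments scaled to the length of the gene and the size of the library, so that they can be compared between genes. An estimated 13060000 to 16440000 fragments stood behind each library, in which 10878 to 11606 genes reached 1 FPKM. The epithelial keratin Krt13 stood at 36764 FPKM ± 1808 (SD, n = 5) in wild type and 36642 ± 1835 (n = 5) in knockout. Mst2, listed as Stk3, fell from 2.62 ± 0.521 to 0.134 ± 0.0862 FPKM (n = 5 each), with no overlap. Mst1, listed as Stk4, had 19.3 ± 2.41 and 15.6 ± 2.00 FPKM, a log2 difference of -0.29 (SE 0.12, limma adjusted p = 0.123). Which exons the loxP sites flank is not given, so the level of the whole gene need not show the deletion. Trp63, which encodes p63, fell by 0.76 on the log2 scale (SE 0.13, limma adjusted p = 0.00293). It was the 1 called gene of 8 tested epithelial markers, whose median log2 difference was 0.05. Of the fibroblast markers, 5 of 6 were under 0.5 FPKM in every library, and the exception, Dcn, gave the list sums of 4.44 to 13.56 FPKM in the wild-type libraries and 0.07 to 1.13 FPKM in the knockout libraries. The immune markers summed to 5.05 to 33.28 FPKM in the wild-type libraries and 4.87 to 16.07 FPKM in the knockout libraries, most of it Cd74. Every marker of endothelium, muscle, hepatocytes and glandular epithelium stayed under 0.5 FPKM.

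Of the 92 genes, 19 reached 1 FPKM in at least 5 libraries and were tested, among 11386 such genes. The other 73 were not tested: 40 were listed at 0 in all 10 libraries and 33 were above 0, of which 25 never reached 0.5 FPKM. The tested genes came from 8 of 16 families, with 9 of 50 Cyp2 genes, 4 of 16 Cyp4 genes and 1 of 7 Cyp3 genes among them. Just inside the limit lay Cyp2b19, Cyp1b1 and Cyp7b1, and just outside it Cyp2j9 and Cyp8b1, whose highest values were 1.23 and 1.19 FPKM. The genes listed at 0 in all libraries included 27 Cyp2 genes and 5 Cyp3 genes. Of the 33 untested genes above 0, 2 had groups that did not overlap, 6.06% against 2.78% of the 16213 genes below the limit and above 0 in at least 1 library, and with 2 genes nothing is read from that share.

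Knockout and wild type were compared with limma on log2(FPKM + 1), a scale that understates changes of low genes, with Benjamini-Hochberg adjustment over all 11386 genes and a threshold of 0.05. Of the 19 tested P450 genes 6 passed, 31.6%, against 12.9% of all tested genes. The knockout was lower for 5 of them, Cyp2a5, Cyp2c65, Cyp2c66, Cyp39a1 and Cyp2s1, which is 26.3% against 4.96% of all genes. It was higher for 1, Cyp3a13, which is 5.26% against 7.9% of all genes. The groups of 5 did not overlap for 7 of the 19 genes, 36.8% against 10.5% of all genes. The median log2 difference was -0.32 over the 19 genes and 0.06 over all genes, with 14 negative and 5 positive. These counts are over the genes that passed the limit, and the P450 genes were chosen with earlier results of these data known. Nor are the genes independent of each other: Cyp2c65 and Cyp2c66 share sequence and are neighbours. As these are bulk samples, fewer cells that use a gene and less RNA per cell cannot be told apart.

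**Figure D1:**
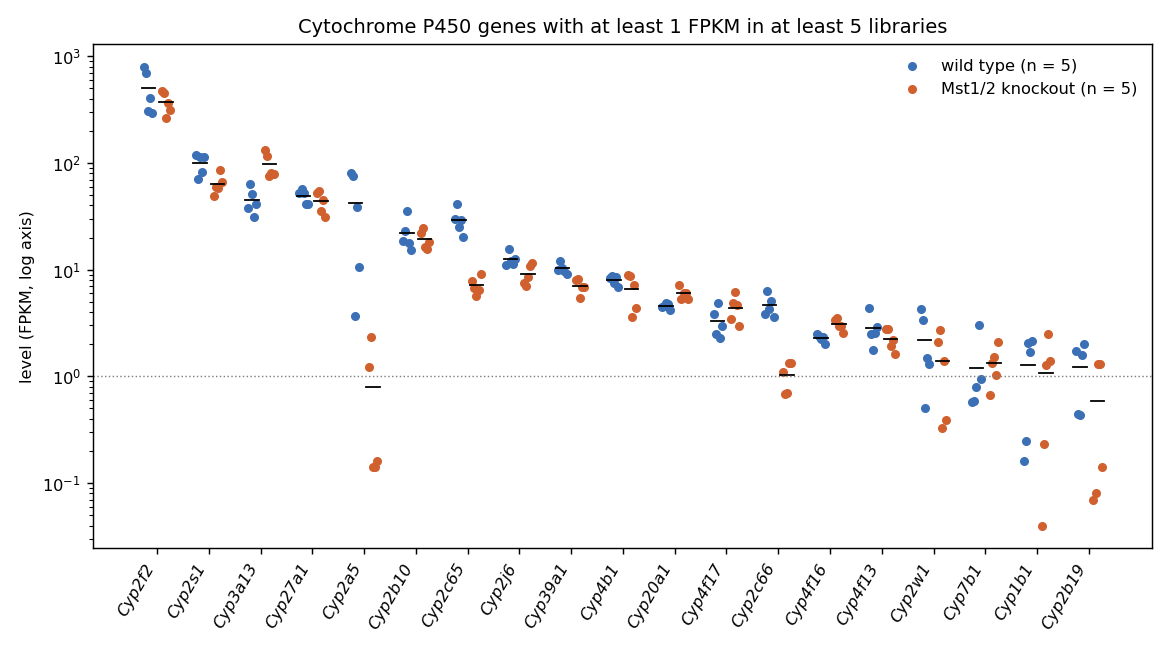
Level of each of the 19 tested P450 genes in each library, in FPKM on log axes, with wild type and knockout side by side, 1 point per library and the group mean as a bar. The groups are apart for Cyp2a5, Cyp2c65, Cyp2c66, Cyp39a1, Cyp3a13, Cyp4f16 and Cyp20a1, and overlap for the rest.

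**Figure D2:**
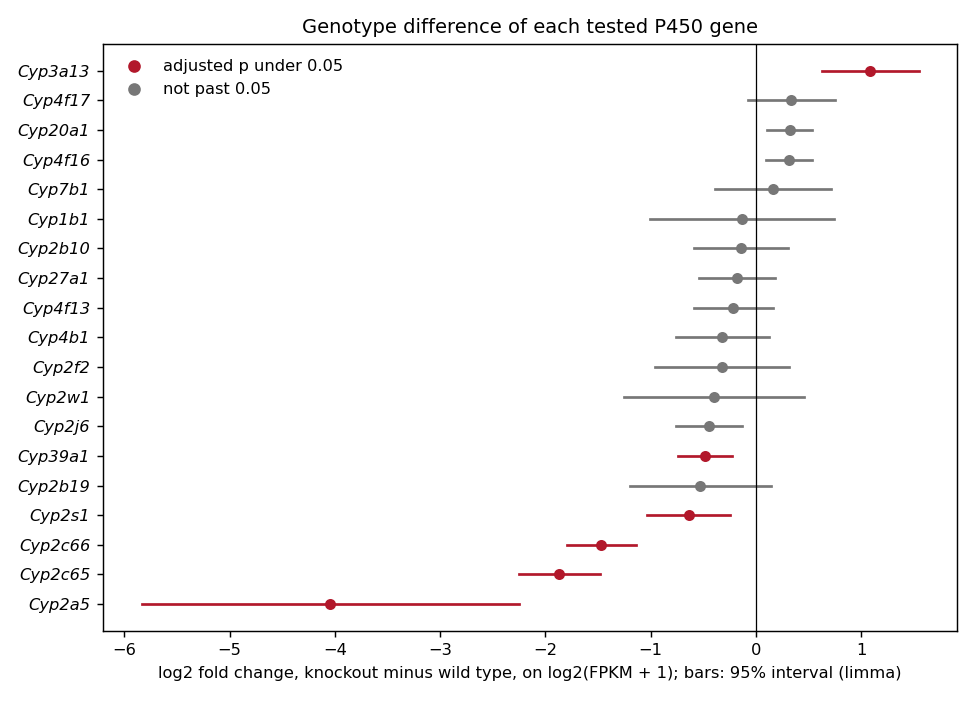
Log2 difference of knockout minus wild type on the log2(FPKM + 1) scale for the 19 tested P450 genes, with 95% intervals from limma and the genes that passed the threshold in colour. Cyp2a5 has both the lowest estimate, -4.04, and the widest interval, and Cyp3a13 is the 1 gene called higher. The intervals are not adjusted over the 19 genes, so that some that exclude 0 belong to genes that were not called.

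Cyp2a5 showed the biggest difference among the tested P450 genes. It encodes an enzyme that hydroxylates coumarin and oxidizes nicotine. The wild-type libraries had 81.3, 76.2, 3.65, 39.0 and 10.5 FPKM, and the knockout libraries 1.22, 2.35, 0.14, 0.14 and 0.16 FPKM. Every knockout library lay below every wild-type library, but the wild-type libraries spread over a 22.3-fold range and the knockout libraries over a 16.8-fold range. The lowest knockout values, 0.14, 0.14 and 0.16 FPKM, rest on few fragments, so the knockout range is uncertain. The means were 42.1 ± 36.0 and 0.802 ± 0.982 FPKM (SD, n = 5 each), 98.1% lower in the knockout. On the log2(FPKM + 1) scale the difference was -4.04 (SE 0.80, 95% interval -5.83 to -2.25, limma adjusted p = 0.0115). It was -5.51 with a pseudocount of 0.1 and -2.54 with a pseudocount of 5, and -4.67 without wild type 3, the library with the lowest wild-type value.

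Reads of Cyp2a5 may be shared with close copies on chromosome 7, which bears on its level. Of the 31-base sequences of its GENCODE M21 transcripts, a share of 0.546 also occurs in another gene, 0.449 in Cyp2a4 and 0.234 in the pseudogene Cyp2a21-ps, which was chosen for mention after its values were seen. The coding sequences of Cyp2a5 and Cyp2a4, which encodes a testosterone 15-alpha-hydroxylase, have 1482 bases each, of which 1459 are identical (98.4%). The 23 differences leave an identical run of up to 216 bases, from position 742 to 957, where a fragment cannot be assigned to one of them. Cyp2a12 and Cyp2a22 are identical to Cyp2a5 at 76.8% and 76.1% of aligned bases. A coding stretch of exons 4 and 5, positions 580 to 669 counted from the first base of the start codon, is shown because it holds 5 of the 23 differences, in capitals, and so tells the genes apart. They are G603T, C607A, T625C, C655G and C669T, with the base of Cyp2a5 first and the base of Cyp2a4 last. The sequences are from GENCODE M21, 5′ to 3′.
Cyp2a5: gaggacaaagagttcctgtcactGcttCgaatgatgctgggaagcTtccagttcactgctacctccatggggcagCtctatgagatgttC
Cyp2a4: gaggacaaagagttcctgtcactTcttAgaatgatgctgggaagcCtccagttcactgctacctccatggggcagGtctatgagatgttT

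Cyp2a4 itself had 0.31 FPKM in wild type 1, 0.04 FPKM in wild type 4 and was listed at 0 in the other 8 libraries. Cyp2a21-ps had 0.05 FPKM in wild type 1 and was listed at 0 elsewhere. Cyp2a12 had at most 0.02 FPKM, and Cyp2a22 was listed at 0 in all libraries. The deposited values therefore assign nearly all fragments of the group to Cyp2a5, under counting rules that the sources used here do not give. The promoters of the pair are also alike. From 250 bases before to 50 after the first listed start, 294 of 299 aligned bases were identical (98.3%). Both windows are shown to make that visible, with capitals for bases that differ or have no partner in the alignment. They are from RefSeq on GRCm38.p6, both on the + strand, 5′ to 3′, Cyp2a5 at chr7:26835089-26835388 and Cyp2a4 at chr7:26306942-26307241.
Cyp2a5 promoter: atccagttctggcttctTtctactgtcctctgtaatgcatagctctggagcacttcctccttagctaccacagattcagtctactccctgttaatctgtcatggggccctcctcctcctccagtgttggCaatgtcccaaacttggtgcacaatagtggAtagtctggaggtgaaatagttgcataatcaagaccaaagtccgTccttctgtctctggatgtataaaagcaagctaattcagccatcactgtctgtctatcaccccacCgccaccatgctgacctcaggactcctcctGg
Cyp2a4 promoter: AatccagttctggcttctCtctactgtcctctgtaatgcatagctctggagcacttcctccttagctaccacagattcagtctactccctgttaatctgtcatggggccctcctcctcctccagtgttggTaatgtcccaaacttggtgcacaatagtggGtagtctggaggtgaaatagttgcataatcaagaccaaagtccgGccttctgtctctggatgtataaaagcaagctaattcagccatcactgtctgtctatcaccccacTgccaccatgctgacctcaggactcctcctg

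Cyp2c65 and Cyp2c66, a pair of neighbouring genes on chromosome 19 whose enzymes oxidize arachidonic acid, were both lower in the knockout. Cyp2c65 had 30.0, 41.6, 25.2, 29.2 and 20.1 FPKM in the wild-type libraries and 7.82, 6.78, 5.61, 6.50 and 9.02 FPKM in the knockout libraries. The groups were far apart, with 20.1 FPKM in the lowest wild-type library and 9.02 FPKM in the highest knockout library. The means were 29.2 ± 7.98 and 7.15 ± 1.31 FPKM (SD, n = 5 each), a log2 difference of -1.87 (SE 0.18, limma adjusted p = 3.16e-05). Cyp2c66 had 3.88, 6.26, 4.31, 5.14 and 3.62 FPKM in the wild-type libraries and 1.10, 0.69, 0.70, 1.34 and 1.33 FPKM in the knockout libraries. Again no library of one group reached the other. The means were 4.64 ± 1.07 and 1.03 ± 0.322 FPKM (n = 5 each), a log2 difference of -1.47 (SE 0.15, limma adjusted p = 7.52e-05). Mean levels were 75.5% and 77.8% lower. All other 15 P450 genes on that chromosome stayed under the limit for testing.

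The coding sequences of Cyp2c65 and Cyp2c66 are identical at 1416 of 1470 bases (96.3%), and a share of 0.335 of the 31-base sequences of Cyp2c65 also occurs in Cyp2c66. Part of either level may thus be reads of the other, and the 2 differences are not independent measurements. Their promoter windows were identical at 94.5% of 271 aligned bases. They are shown because the pair moved together, with capitals for bases that differ or have no partner, from RefSeq on GRCm38.p6, + strand, 5′ to 3′, Cyp2c65 at chr19:39060756-39061055 and Cyp2c66 at chr19:39113648-39113947.
Cyp2c65 promoter: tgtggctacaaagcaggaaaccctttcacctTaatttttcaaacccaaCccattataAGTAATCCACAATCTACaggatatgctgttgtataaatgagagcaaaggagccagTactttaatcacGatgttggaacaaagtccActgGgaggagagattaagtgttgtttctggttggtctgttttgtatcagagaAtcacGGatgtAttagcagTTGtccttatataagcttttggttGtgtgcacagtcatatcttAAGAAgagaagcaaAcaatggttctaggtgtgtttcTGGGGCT
Cyp2c66 promoter: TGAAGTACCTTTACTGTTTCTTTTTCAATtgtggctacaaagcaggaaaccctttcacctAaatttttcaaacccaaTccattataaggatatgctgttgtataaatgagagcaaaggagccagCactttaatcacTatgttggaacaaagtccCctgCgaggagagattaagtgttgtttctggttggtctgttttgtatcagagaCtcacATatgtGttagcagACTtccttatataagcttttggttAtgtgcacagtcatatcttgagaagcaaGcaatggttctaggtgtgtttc

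These 300-base windows were searched on both strands for TTANNTAA, a loose form of the letters bound by clock output factors of the PAR bZIP family. The pattern also matches TATA-box letters, and it misses variants of such sites that differ in the outer letters. It was found in Cyp2c65 from base -30 and in Cyp2c66 from base -18, where both read TTATATAA, like a TATA box. These matches are therefore not read as clock sites, and a missing match is not read as the lack of one. Cyp2c65 and Cyp2c66 were the only 2 of 16 tested P450 genes with a promoter sequence that held the pattern. Of all 70 P450 promoters 9 did, against 6.08% of 27025 mouse promoters. GCGTG, the core letters of AHR sites, was in 5 of the 16, Cyp20a1, Cyp2w1, Cyp2b10, Cyp4f16 and Cyp1b1, and in 15 of 70, against 32.5% of all promoters. CACGTG, an E-box, was in Cyp2j6 alone of the 16 and in 2 of 70, against 7.24%. These are matches of letters and not measured sites.

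Cyp2f2, known from club cells of the mouse lung where it activates naphthalene, had the highest level of all P450 genes. It had 795, 692, 307, 407 and 295 FPKM in the wild-type libraries and 475, 455, 266, 365 and 316 FPKM in the knockout libraries. Libraries 1 and 2 were the highest of both groups, and the groups overlapped. The means were 499 ± 230 and 375 ± 89.3 FPKM (SD, n = 5 each), a log2 difference of -0.32 (95% interval -0.96 to 0.31, limma adjusted p = 0.494). A share of 0.109 of its 31-base sequences lies in another gene, Gm15883, which was at 0.35 to 18.95 FPKM and was chosen for mention after its values were seen.

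Cyp2s1, an epithelial P450 inducible through the aryl hydrocarbon receptor AHR, ranked second in wild type. Its libraries had 119, 70.8, 114, 82.5 and 114 FPKM in the wild-type libraries and 49.3, 59.1, 58.2, 86.7 and 66.0 FPKM in the knockout libraries. Knockout 4 lay above wild type 2 and wild type 4, so the groups overlapped. The means were 100.2 ± 22.0 and 63.9 ± 14.1 FPKM (n = 5 each), a log2 difference of -0.64 (SE 0.18, limma adjusted p = 0.0394). This call was the least stable of the 6 when single libraries were left out: it was lost without wild type 1, 3 or 5 or knockout 1, 2, 3 or 5, with adjusted p-values of 0.0723 to 0.0992, and without the filter on low genes (0.0982).

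The remaining Cyp2 genes were not called. Cyp2j6, a P450 gene known from the small intestine, had 11.0, 15.8, 12.1, 11.4 and 12.7 FPKM in the wild-type libraries and 7.43, 7.02, 8.46, 10.7 and 11.5 FPKM in the knockout libraries. Knockout 5 alone exceeded any wild-type library, and the log2 difference was -0.45 (SE 0.14, limma adjusted p = 0.0596). It passed without knockout 4 (0.0468) or knockout 5 (0.0423). Cyp2b10, a target of the xenobiotic receptor CAR in liver, had means of 22.0 ± 7.95 and 19.3 ± 3.85 FPKM (n = 5 each) and overlapping groups (-0.14, 95% interval -0.59 to 0.30). Its sign turned to 0.04 without wild type 3, which at 35.4 FPKM was its highest library. Cyp2b19, an epoxygenase of keratinocytes, ranged from 0.43 to 2.00 FPKM in the wild-type libraries and from 0.07 to 1.32 FPKM in those of the knockout (-0.53, 95% interval -1.20 to 0.14). Cyp2w1, which in humans is known from fetal gut and colon tumours, ranged from 0.50 to 4.24 and from 0.33 to 2.70 FPKM (-0.40, 95% interval -1.25 to 0.46).

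Cyp3a13, the tested gene of the drug-oxidizing Cyp3a subfamily, was the P450 gene that rose. It had 37.9, 64.0, 51.7, 31.2 and 41.7 FPKM in the wild-type libraries and 133, 117, 76.2, 79.8 and 79.1 FPKM in the knockout libraries. The lowest knockout library stood above the highest wild-type library. The means were 45.3 ± 12.8 and 97.0 ± 26.1 FPKM (SD, n = 5 each), a 2.14-fold ratio and a log2 difference of 1.09 (SE 0.21, 95% interval 0.63 to 1.55, limma adjusted p = 0.00636). It kept its call when any 1 library was left out, with log2 differences of 0.96 to 1.22. Its nearest relatives were near or at 0, with 5 Cyp3a genes listed at 0 in all libraries and Cyp3a57 at no more than 0.07 FPKM.

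Among the sterol hydroxylases 1 of 3 tested genes was called, against 12.9% of all tested genes, and with 3 genes nothing is read from that share. Cyp39a1, which hydroxylates 24-hydroxycholesterol, had 10.0, 12.1, 10.4, 9.74 and 9.10 FPKM in the wild-type libraries and 8.07, 8.22, 5.48, 6.83 and 6.92 FPKM in the knockout libraries. The groups did not overlap, though the gap between them was small, from 8.22 to 9.10 FPKM. The means were 10.3 ± 1.13 and 7.10 ± 1.11 FPKM (n = 5 each), a log2 difference of -0.48 (SE 0.12, limma adjusted p = 0.0200). It kept its call when any 1 library was left out but lost it without the filter on low genes (0.0518). Cyp27a1, the mitochondrial sterol 27-hydroxylase, had 48.7 ± 7.20 and 43.6 ± 10.3 FPKM (n = 5 each) with overlapping groups (-0.18, 95% interval -0.54 to 0.19). Cyp7b1, which hydroxylates oxysterols, had 0.58, 0.59, 0.80, 3.03 and 0.95 FPKM in the wild-type libraries and 0.67, 1.34, 1.53, 1.04 and 2.08 FPKM in the knockout libraries. Wild type 4 stood apart from the other wild-type libraries, and the log2 difference was 0.16 (95% interval -0.39 to 0.71).

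None of the 4 tested Cyp4 genes passed the threshold in limma's test. Cyp4f16, of the Cyp4f subfamily of fatty acid hydroxylases, had 2.48, 2.37, 2.22, 2.34 and 2.00 FPKM in the wild-type libraries and 3.39, 3.55, 2.98, 2.95 and 2.57 FPKM in the knockout libraries. All knockout libraries exceeded all wild-type libraries, and the log2 difference was 0.31 (SE 0.10, limma adjusted p = 0.0568). With quantile normalization it was called (0.0340). A share of 0.268 of its 31-base sequences occurs in other genes, mainly Cyp4f37, which had at most 0.36 FPKM. Its relatives Cyp4f17 (0.34, 95% interval -0.08 to 0.75) and Cyp4f13 (-0.21, 95% interval -0.59 to 0.16) had overlapping groups. So did Cyp4b1, known from lung and bladder, at 8.03 ± 0.800 and 6.56 ± 2.43 FPKM (n = 5 each, -0.32, 95% interval -0.76 to 0.13).

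Cyp20a1, an orphan P450 with no settled substrate, had 4.44, 4.58, 4.89, 4.77 and 4.23 FPKM in the wild-type libraries and 7.23, 5.32, 6.06, 6.02 and 5.34 FPKM in the knockout libraries. No knockout library fell within the wild-type range, and the log2 difference was 0.32 (SE 0.10, limma adjusted p = 0.0516). Cyp1b1, an AHR target that oxidizes polycyclic hydrocarbons and estradiol, had 0.16, 0.25, 2.06, 1.70 and 2.16 FPKM in the wild-type libraries and 0.04, 0.23, 1.28, 2.47 and 1.38 FPKM in the knockout libraries. In both groups libraries 1 and 2 were at 0.25 FPKM or below and the others at 1.28 FPKM or above. Its log2 difference was -0.13 (95% interval -1.01 to 0.75), with a sign that turned in 4 of the 10 fits that left out 1 library. Its relative Cyp1a1, another AHR target, reached at most 0.97 FPKM.

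Summed over all 92 genes, the P450 level was 1195, 1088, 645, 707 and 593 FPKM in the wild-type libraries and 789, 768, 500.5, 650.2 and 564 FPKM in the knockout libraries. Only wild type 1 and 2 exceeded every knockout library. The means were 846 ± 276 and 654 ± 125 FPKM (SD, n = 5 each), with p = 0.238 in an exact two-sided permutation test, which could give 0.00794 at the lowest. Without Cyp2f2 the sums had means of 347 ± 49.7 and 279 ± 36.6 FPKM (exact permutation p = 0.0635). The share of Cyp2f2 in the sum was 57.0% in both groups, ranging from 47.6% to 66.5% among the wild-type and from 53.1% to 60.2% among the knockout libraries. Cyp3a13 made up 5.70% ± 1.95 of the sum in wild type and 14.7% ± 1.69 in knockout (n = 5 each). For Cyp2a5 the shares were 4.33% ± 2.97 and 0.108% ± 0.124.

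**Figure D3:**
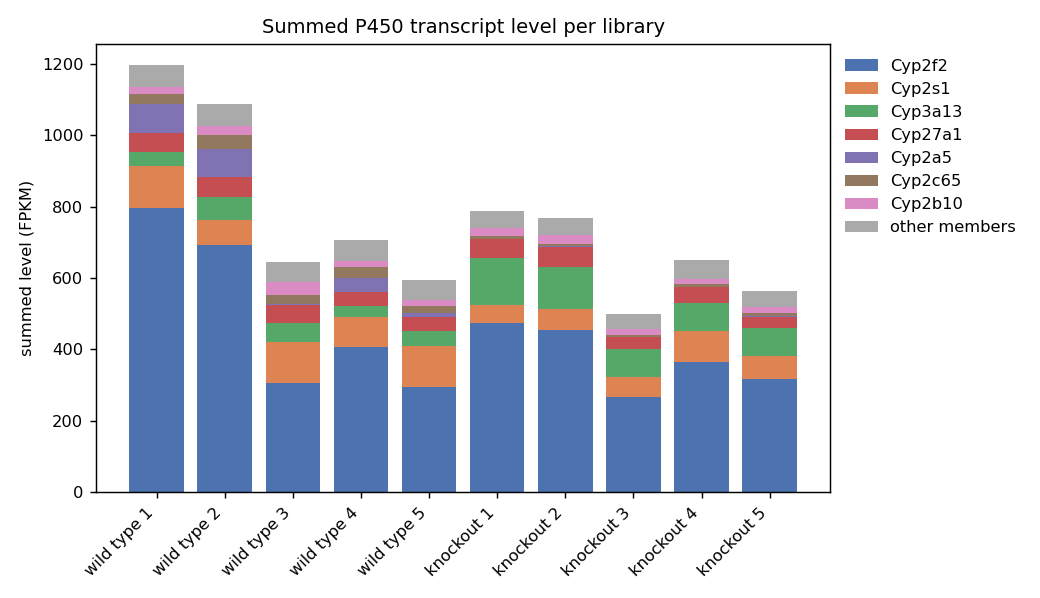
Summed FPKM of the 92 P450 genes in each library, stacked by gene for the genes with the highest levels, on a linear axis from 0. Cyp2f2 makes up most of each bar in 8 of 10 libraries, and the segment of Cyp3a13 is larger in every knockout library than in any wild-type library.

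Dbp, a clock output gene that encodes a PAR bZIP factor, differed widely between libraries of the same genotype, and several P450 genes of mouse liver are known to depend on this factor family. Dbp had 22.6, 12.0, 1.25, 16.4 and 1.73 FPKM in the wild-type libraries and 14.5, 8.45, 0.84, 0.56 and 0.38 FPKM in the knockout libraries. Wild type 1, 2 and 4 and knockout 1 and 2 were above 5 FPKM and the other 5 libraries below, a division chosen after the data were seen. The sources used here do not give the time of day at which tissue was taken. None of the 6 clock output genes tested passed the threshold (Dbp -1.16, 95% interval -3.25 to 0.92). Because the knockout has 2 libraries above and the wild type 3, genotypes were also compared within each class. Dbp itself still had log2 differences of -0.53 above and -0.65 below (limma adjusted p = 0.389 and 0.138). Below, it had 1.25 to 1.73 FPKM in wild type and 0.38 to 0.84 FPKM in knockout. The classes therefore do not hold clock output equal between the genotypes.

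Mean Cyp2a5 was higher in the class with more Dbp in both genotypes. Above 5 FPKM of Dbp it had a mean of 65.5 FPKM in 3 wild-type libraries and 1.79 FPKM in 2 knockout libraries, a log2 difference of -4.54 (limma adjusted p = 0.000306). Below 5 FPKM of Dbp the 2 wild-type libraries had a mean of 7.09 FPKM and the 3 knockout libraries one of 0.147 FPKM, a log2 difference of -2.67 (limma adjusted p = 0.0149). With the mean of Dbp, Nr1d1, Per3 and Tef as a covariate over all 10 libraries, the difference was -2.997 (SE 0.55, limma adjusted p = 0.00908). Whether the genotype difference itself differed between the classes was not tested.

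Cyp2c65, Cyp2c66 and Cyp3a13 also passed within each class, though the classes are parts of the same libraries and not separate data. Cyp2c65 differed by -2.04 above and -1.57 below on the log2 scale, Cyp2c66 by -1.67 and -1.24, and Cyp3a13 by 1.54 and 0.74. Cyp39a1 lost its call with the covariate (-0.40, limma adjusted p = 0.0555). Within the classes, which hold 5 libraries each, it had log2 differences of -0.34 above and -0.54 below and was not called (limma adjusted p = 0.336 and 0.103). Cyp2s1 kept it with the covariate (-0.78, limma adjusted p = 0.0258) and had log2 differences of -0.71 above and -0.71 below that were not called with 5 libraries each (limma adjusted p = 0.192 and 0.0924). Cyp2j6 (-0.60, limma adjusted p = 0.0198) and Cyp4f16 (0.41, limma adjusted p = 0.0157) gained a call with the covariate. For Cyp2f2 the log2 difference turned from -0.32 to 0.06 with the covariate. Its wild-type means were 631 FPKM above and 301 FPKM below, and its knockout means 465 and 316 FPKM. Cyp2w1 likewise had wild-type means of 3.05 and 0.910 FPKM and knockout means of 2.41 and 0.700 FPKM.

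**Figure D4:**
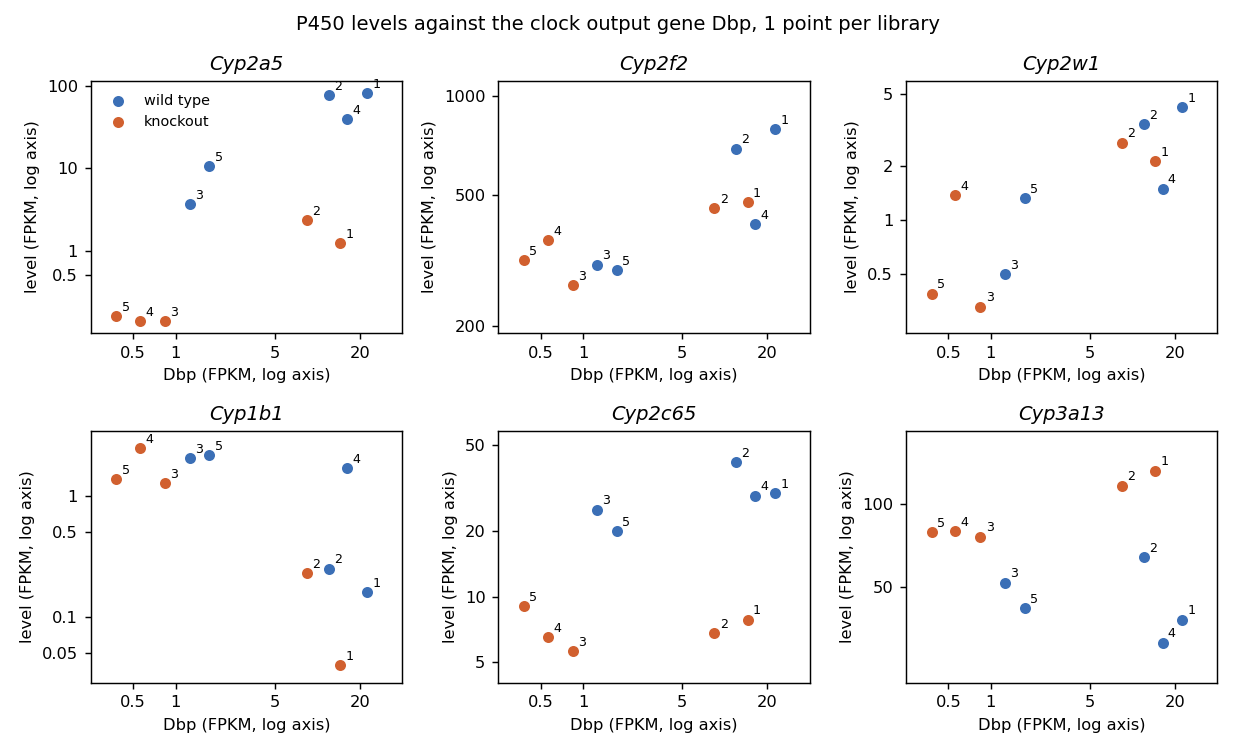
Level of 6 P450 genes against the level of Dbp, both in FPKM on log axes, with 1 numbered point per library. Cyp2a5, Cyp2f2 and Cyp2w1 have their highest values to the right, in libraries with more Dbp, Cyp1b1 has its lowest there, and Cyp2c65 and Cyp3a13 separate by genotype at both ends. Wild type 4 also lies to the right, but its Cyp1b1 falls within the range of the libraries below 5 FPKM of Dbp. Its Cyp2w1 is only just above the highest of those libraries.

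Genes that act with P450 enzymes were followed as 8 lists with 134 genes, of which 61 could be tested. Of these, 4 were higher and 4 lower in the knockout, 13.1% against 12.9% of all tested genes, with a median log2 difference of -0.10. The share called was close to that of all genes. Among electron carriers and heme-protein partners 1 of 9 tested genes rose, Cyb5b, a mitochondrial cytochrome b5, with 23.4 to 32.8 FPKM in the wild-type libraries and 33.4 to 41.5 FPKM in the knockout libraries (0.40, limma adjusted p = 0.0359). Leaving out any of 7 libraries, wild type 1, 2, 3 or 5 or knockout 1, 3 or 5, ended that call. It was also lost with quantile normalization (limma adjusted p = 0.0750) and without the filter on low genes (0.0801), but kept with median-ratio scaling (0.0471). Por, the reductase that serves the P450 enzymes of the endoplasmic reticulum, had 45.3 ± 6.76 and 56.3 ± 4.78 FPKM (n = 5 each, 0.32, limma adjusted p = 0.0863). Pgrmc1 and Cyb5a were not called either, with log2 differences of -0.19 and 0.14.

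Of 13 tested regulators 1 was called. Ppara, a fatty acid receptor that controls Cyp4 genes in liver, had 4.91, 3.73, 3.67, 4.41 and 4.50 FPKM in the wild-type libraries and 1.88, 1.75, 1.58, 3.17 and 2.46 FPKM in the knockout libraries. The groups did not overlap, and the log2 difference was -0.74 (SE 0.14, limma adjusted p = 0.00518). The regulators with the highest levels were not called, Nfe2l2 at 163 ± 32.3 and 179.5 ± 26.3 FPKM, Rxra at 27.3 ± 5.29 and 23.5 ± 1.54 FPKM, and Tiparp at 15.4 ± 4.32 and 23.1 ± 7.56 FPKM (n = 5 each). Of 5 AHR targets outside the P450 family none passed in limma's test, among them Aldh3a1 (-0.60, 95% interval -1.26 to 0.06) and Nqo1 (0.29, 95% interval -0.17 to 0.75). The same held for 5 tested genes of vitamin D, oxysterol and steroid metabolism, led by Hsd17b2 (0.56, 95% interval 0.13 to 0.99).

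Of 8 tested conjugation genes 1 rose, Ugt1a1, which glucuronidates bilirubin and drugs, from 4.75 ± 1.35 to 8.54 ± 1.34 FPKM (n = 5 each, 0.75, limma adjusted p = 0.0131). The Ugt1a genes share their last exons, so that their reads cannot be fully told apart, and Ugt1a7c had a log2 difference of -0.58 (95% interval -1.10 to -0.07, limma adjusted p = 0.122). Of 5 other oxygenases and epoxide hydrolases, Fmo2, a flavin monooxygenase, fell and Ephx1, the microsomal epoxide hydrolase, rose. Fmo2 had 135, 162, 101.5, 93.9 and 165 FPKM in the wild-type libraries and 8.39, 19.3, 44.5, 71.5 and 49.9 FPKM in the knockout libraries. The groups did not overlap, and the log2 difference was -2.03 (SE 0.49, limma adjusted p = 0.0237), with the call lost without wild type 1 (0.0548), wild type 5 (0.0657) or knockout 2 (0.0545). The call of Fmo2 was also lost without the filter on low genes (limma adjusted p = 0.0523) but kept with quantile normalization (0.0148). Ephx1 had 54.97 ± 14.6 and 89.1 ± 23.1 FPKM (n = 5 each, 0.69, limma adjusted p = 0.0487), and any of 9 libraries left out, all but wild type 2, ended its call. So did quantile normalization (limma adjusted p = 0.116), median-ratio scaling (0.0531), a pseudocount of 0.1 (0.0504), a plain variance model (0.0512) and no filter on low genes (0.119). It was kept with a pseudocount of 5, a filter at 5 FPKM, the replicate number as a block and the clock covariate.

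Of 14 tested eicosanoid enzymes outside the P450 family 3 were called. Alox12, a lipoxygenase, fell from 12.8 ± 2.08 to 6.86 ± 1.64 FPKM (n = 5 each, -0.82, limma adjusted p = 0.00460), and Ptgs1, a cyclooxygenase, from 11.4 ± 1.16 to 6.56 ± 2.06 FPKM (-0.75, limma adjusted p = 0.00996). Ptges3, a prostaglandin synthase and HSP90 co-chaperone, rose from 29.7 ± 3.92 to 41.8 ± 2.77 FPKM (n = 5 each, 0.49, limma adjusted p = 0.0119). The groups of each of these genes did not overlap. Alox12b, Hpgd and Pla2g4f, the most abundant of the list, were not called, with log2 differences of -0.15, 0.00 and -0.16. Beside these lists, Dcn fell by 2.83 on the log2 scale, and its part in any of these differences was not tested.

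**Figure D5:**
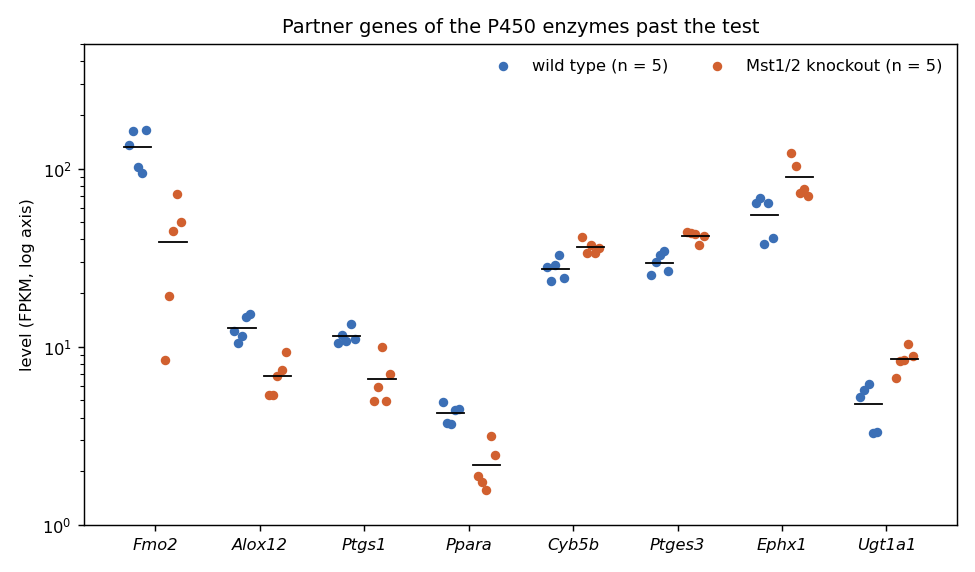
Level in each library, in FPKM on a log axis, of the 8 partner genes that passed the threshold, with wild type and knockout side by side and the group mean as a bar. Cyb5b, Ugt1a1, Ephx1 and Ptges3 are higher and Ppara, Fmo2, Ptgs1 and Alox12 lower in all 5 knockout libraries than in any wild-type library.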

How the data were processed

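The authors deposited 1 table of FPKM values with 2 decimals for 10 libraries of mouse esophageal epithelium. The build mm9 and the tools HTSeq 0.6.1, HISAT2 2.0.1 and cutadapt are named per the submitters' processing notes. The sources used here give neither settings nor annotation, use of strand or treatment of reads that match several genes, so reads of overlapping or antisense genes cannot be told apart. Depth was estimated as the fragment total at which 98.1% to 98.5% of the values became whole fragments, in single-exon genes of at most 1200 bases and within 0.01 beyond rounding, against 9.6% to 11.4% by chance. As the lengths and totals behind the values are not given, no count model was fitted.

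Genes that reached 1 FPKM in 5 or more libraries were tested as log2(FPKM + 1), with genotype as the sole term of a limma 3.58.1 model (R 4.3.3), trended and robust empirical Bayes, and p-values adjusted by Benjamini-Hochberg across all of these genes. Shared 31-base sequences and coding sequences came from GENCODE M21, which matched 91 of the 92 genes, and promoters from RefSeq on GRCm38.p6, which held 70. Coding sequences were aligned with Biopython 1.88. The alternatives were pseudocounts, filters, scaling, the variance model, the replicate number as a block, a clock covariate, leaving out P450 genes that share at least 0.2 of their sequences, and leaving out each library. The division by Dbp was added after the data were seen. The P450 genes and the lists were chosen with earlier results of these data known. Named were all tested P450 genes, the relatives of Cyp2a5, Stk3, Stk4 and Dbp, and of each list every called gene and up to 3 others with the highest mean. Cyp2j9, Cyp8b1, Cyp17a1, Cyp1a1, Cyp3a57, Cyp4f37, Cyp2a21-ps, Gm15883, Krt13 and Cd74 were named outside that rule, after their values were seen.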

Additional observations from a re-analysis of the deposited data

Results flagged for a closer look

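Among 54 groups of 5 libraries, those of the 19 tested P450 genes and the 8 called partner genes, 1 held a library far from the others by Dixon's criterion at the 95% level, where chance gives about 1 in 20. Cyp7b1 had 3.03 FPKM in wild type 4, while the other wild-type libraries lay between 0.58 and 0.95 FPKM. The gap took 0.849 of the group's range, above the critical value of 0.71. Without that library the log2 difference of Cyp7b1 rose from 0.16 to 0.41 and was still not called (limma adjusted p = 0.147). Wild type 4 also had the second highest Cd74, with 21.2 FPKM, and its part in the Cyp7b1 value was not tested.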

How the results depend on the processing

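Cyp2a5, Cyp2c65, Cyp2c66 and Cyp3a13 kept their direction and call in each alternative in which they were tested, with Cyp2a5 at -4.67 to -3.64 and adjusted p-values of 0.00116 to 0.0341 when 1 library was left out. A filter at 5 FPKM leaves Cyp2a5 and Cyp2c66 out of the test. The P450 genes called lower numbered 5, or 3 without a filter, 3 with a filter at 5 FPKM, 3 within either Dbp class, 2 without the 4 genes that share sequence, and 4 to 6 when 1 library was left out. The P450 genes called higher numbered 1, or 2 with quantile normalization or the clock covariate, and 1 in each fit without 1 library. The median log2 difference of the 19 tested P450 genes, -0.32, was -0.063 with the clock covariate and -0.39 to -0.18 without 1 library. Without a filter the median was -0.017, but it then also took in the 33 untested P450 genes above 0 FPKM. The log2 differences of the 19 genes themselves stayed the same without a filter. The difference of the summed level, -191 FPKM, was -255 to -104 FPKM without 1 library, and lowest in size without wild type 1 (exact permutation p = 0.468). The partner genes called higher numbered 4, or 2 without a filter, 2 with quantile normalization, 0 within the class above 5 FPKM of Dbp, 2 in the class below, and 2 to 4 without 1 library, with 2 without wild type 3 or 5 or knockout 1, 3 or 5. Those called lower numbered 4, or 7 with the clock covariate, 0 in the class below, and 3 to 6 without 1 library.

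Over all genes 900 were called higher and 565 lower. The split was 639 to 765 with median-ratio scaling and 685 to 746 with quantile normalization. Higher calls numbered 511 without a filter, 206 and 203 within the classes above and below, and 436 to 1091 without 1 library, and lower calls 329 with a filter at 5 FPKM, 230 and 181 within the classes, and 357 to 679 without 1 library. The lowest counts, 436 and 357, came without wild type 5, and counts also moved by over 1.5 times without wild type 1 (495 and 363) and knockout 5 (529 and 369), and for higher calls without knockout 1 (538) or 3 (572). The classes hold 5 libraries each, so that these tests have fewer samples.

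Single genes gave 557 comparisons with an alternative, of which 484 kept direction and side of the threshold, 55 lost the call, 5 gained it and 13 turned direction. The turns were in genes that were not called. With the clock covariate they were Cyp2f2 (0.060), Cyp2w1 (0.17) and Cyp4f13 (0.011). Above 5 FPKM of Dbp they were Cyp27a1 (0.10), Cyp2b10 (0.23), Cyp4b1 (0.028) and Cyp7b1 (-0.13), and below it Cyp2f2 (0.057). Without 1 library Cyp1b1 ran from -0.35 to 0.085 and Cyp2b10 from -0.25 to 0.039. The causes were not tested beyond this.

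With the replicate number as a block, 773 genes were called higher and 551 lower, and of the P450 genes 1 and 4, with Cyp2s1 lost (adjusted p = 0.0647). Cyb5b (0.0575) and Fmo2 (0.0576) also lost their calls, and no other call among the P450 and partner genes named as called did. Same-numbered libraries had deviations correlated at 0.06, 0.42, 0.19, -0.24 and 0.11, and only wild type 2 matched its own number best, so the numbers were not taken to pair the libraries. Wild type 1 and 2 both matched knockout 2 best, and wild type 3, 4 and 5 matched knockout 5, 3 and 4. Wild type 2 was correlated at 0.35 with knockout 1 and at -0.35, -0.22 and -0.27 with knockout 3, 4 and 5. Against such a division, wild type 1 and 4 were correlated at 0.16 and -0.24 with knockout 4. Whether libraries 1 and 2 of both groups differ jointly from libraries 3 to 5 was not tested. Depth and the 2 decimals of the deposited values limit the low genes, so that the 40 P450 genes listed at 0 may be expressed below detection.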

Other observations

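The 2 P450 genes below the limit for testing whose groups did not overlap are named here after their values were seen. Cyp17a1, the steroid 17-alpha-hydroxylase, had 0.35 to 0.53 FPKM in wild type and 0.13 to 0.28 FPKM in knockout (limma without a filter, adjusted p = 0.0555). Cyp2j9, the neighbour of Cyp2j6 on chromosome 4, had 0.87 to 1.23 FPKM in wild type and 0.43 to 0.80 FPKM in knockout (limma without a filter, adjusted p = 0.162). Neither passed the threshold.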
